A study of Rattus norvegicus with 20 samples.

Results

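The rat genes examined here were 7 genes of cholesterol synthesis, Hmgcs1, Idi1, Fdft1, Sqle, Cyp51, Dhcr7 and Srebf2, named by symbol among the 30443 genes of the expression table. Each symbol matched 1 entry, and all 7 genes were among the 15210 genes that reached 1 FPKM, a value scaled to transcript length and to mapped reads, in at least 1 library. RNA was measured in 20 libraries from 4 adult female Long-Evans rats, wild type and about 6 to 8 months old, with 5 regions taken from every animal. All 4 rats, controls included, had received a hemi-contusion at cervical level 4 (impactor displacement of 0.7 mm) and, 2 weeks later, electrodes in the motor cortex opposite the injured side. From 1 week after implantation, the 2 stimulated animals received pulses at 10 Hz and 80% of movement threshold, in cycles of 5 minutes on and 2 minutes off, for 5 h a day. The period was labelled as 1 week, and the study's methods give 5 days of stimulation. The 2 control animals were connected without current. Region 1 was subcortical white matter under the electrodes, region 2 was its counterpart in the other hemisphere, region 3 was the cord rostral to the lesion, region 4 the lesion epicenter and region 5 the cord caudal to it. Injury and implant were thus common to all groups, and libraries with the same group and number came from 1 animal.

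Cholesterol is built from acetyl-CoA through mevalonate, isoprenoid units, squalene and lanosterol. Cells in the nervous system make their own cholesterol because lipoproteins of the blood do not cross the blood-brain barrier, and oligodendrocytes use much of it for myelin. The transcription factor SREBP2, encoded by Srebf2, is held in the endoplasmic reticulum while sterols are plentiful and, once cleaved, raises the transcription of nearly every enzyme of the pathway and of Insig1, the protein that retains it. The members are given below in pathway order. Hmgcs1 makes HMG-CoA, Idi1 converts isopentenyl diphosphate to its isomer, Fdft1 joins farnesyl units to squalene, Sqle oxidizes squalene, Cyp51 removes a methyl group from lanosterol and Dhcr7 reduces a double bond of the sterol ring in one of the last steps.

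RefSeq promoter windows of 250 bases before to 50 after the annotated start were at hand for 5 of the 7 genes, on the assembly GRCr8, which is a later build than the Rnor6 genome behind the FPKM values. The windows of Hmgcs1, Srebf2 and Idi1 are shown because they hold the CCAAT box, the motif bound by NF-Y, a known partner of SREBP2. Each is written 5′ to 3′ on the strand of the gene, and capitals mark CCAAT or its reverse complement ATTGG.
Hmgcs1, chr2:53382054-53382353, plus strand: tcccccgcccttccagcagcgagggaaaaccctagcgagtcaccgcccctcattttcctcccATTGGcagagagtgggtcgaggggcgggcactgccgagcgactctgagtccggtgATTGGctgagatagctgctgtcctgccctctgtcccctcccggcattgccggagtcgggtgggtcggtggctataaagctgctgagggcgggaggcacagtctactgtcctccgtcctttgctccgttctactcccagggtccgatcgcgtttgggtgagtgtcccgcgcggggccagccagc
Srebf2, chr7:115543057-115543356, plus strand: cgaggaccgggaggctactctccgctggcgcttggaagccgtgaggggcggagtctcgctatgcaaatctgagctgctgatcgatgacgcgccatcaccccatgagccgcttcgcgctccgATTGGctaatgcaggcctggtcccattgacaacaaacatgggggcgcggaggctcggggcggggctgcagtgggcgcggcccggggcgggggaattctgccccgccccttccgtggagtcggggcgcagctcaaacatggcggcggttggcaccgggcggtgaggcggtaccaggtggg
Idi1, chr17:66547475-66547774, minus strand: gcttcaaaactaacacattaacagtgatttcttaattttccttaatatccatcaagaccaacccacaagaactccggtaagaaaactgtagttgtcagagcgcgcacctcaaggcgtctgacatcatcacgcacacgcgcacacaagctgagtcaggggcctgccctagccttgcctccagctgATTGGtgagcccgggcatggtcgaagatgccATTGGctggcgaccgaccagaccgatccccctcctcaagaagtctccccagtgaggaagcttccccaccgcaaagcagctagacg
The boxes began 188 and 133 bases before the start of Hmgcs1, 129 bases before that of Srebf2, and 66 and 35 bases before that of Idi1. CCAAT was found on either strand in 3 of the 5 windows of the members, in 11 of the 12 windows at hand for the other sterol synthesis enzymes and in 37.5% of all 33469 windows. The GC box GGGCGG was found in 4 of 5, 11 of 12 and 33.1%, and the E-box CACGTG in 0 of 5, 1 of 12 and 6.42%. The sterol regulatory element, searched as TCACNCCAC on both strands, was in 0 of 5, 0 of 12 and 1.12%. This search was exact, so a stretch that differs by 1 letter, such as tcaccccat in the window of Srebf2, was not counted. The count of 0 therefore does not show that the windows lack such an element. A match describes the letters only, and no motif searched contains another.

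As FPKM is a value per transcript length, levels of the members can be set side by side. Hmgcs1 was the most abundant member in all 20 libraries, between 31.4 and 129.8 FPKM. Cyp51 came next in the 12 spinal cord libraries and Srebf2 in the 8 white matter libraries. Idi1 and Dhcr7 were the lowest members in every library, from 4.06 to 18.5 FPKM and from 4.52 to 18.7 FPKM. The depth of each gene is not kept in FPKM, so the error of each value is the spread between animals only.

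The 6 enzymes shared an order of regions in their mean levels, with region 1 lowest, then region 2, then region 4, and regions 3 and 5 highest, although region 4 was level with region 3 in Dhcr7 (11.4 and 11.5 FPKM) and near region 2 in Hmgcs1 (74.9 and 70.7 FPKM). Mean Idi1 levels were 4.21 ± 0.21 FPKM under the electrodes and 6.89 ± 0.72 FPKM in the other hemisphere, against 10.6 ± 0.69 FPKM at the epicenter, 15.3 ± 1.04 FPKM rostral to it and 15.9 ± 2.71 FPKM caudal to it (SD, n = 4 each). Neighbours in this order did not overlap in any library for most enzymes, with the exceptions of regions 3 and 5 in every enzyme except Dhcr7, regions 2 and 4 in Hmgcs1, and regions 4 and 3 in Dhcr7. Srebf2 followed another order, lowest in region 4 at 23.1 ± 1.38 FPKM and highest in region 2 at 35.9 ± 2.76 FPKM (SD, n = 4 each). In Srebf2, region 2 was the only region whose libraries all stood apart from those of the region next to it in this order.

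**Figure D1:**
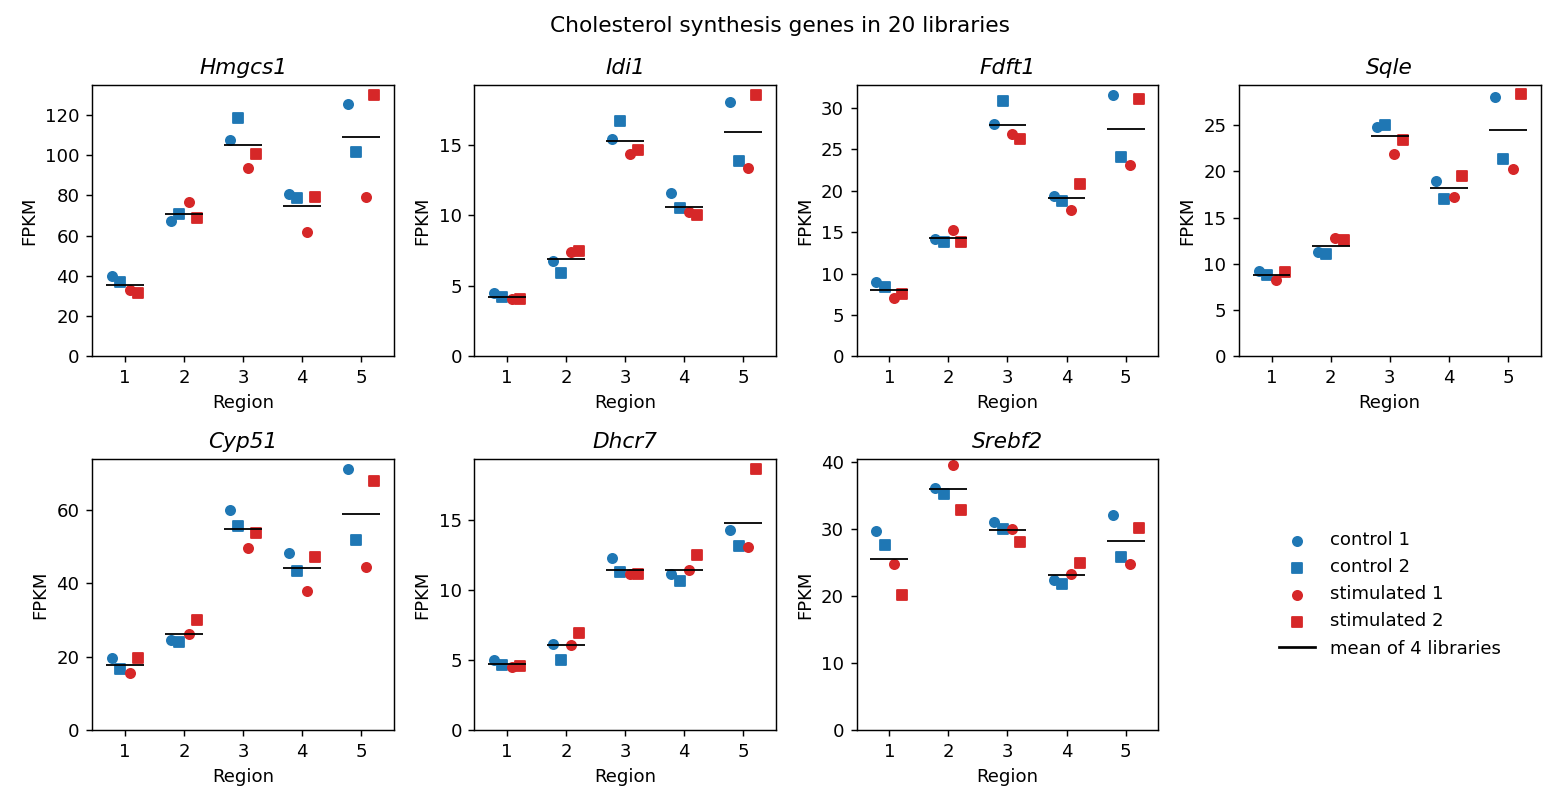
Expression of each member in FPKM (y axis, from 0) in regions 1 to 5 (x axis), with a point for each of the 20 libraries, colour for control and stimulated animals, symbol shape for the animal number and a line at each region's mean (n = 4). The 6 enzymes were lowest in region 1 and highest in the cord, with region 4 overlapping region 2 in Hmgcs1 and region 3 in Dhcr7, and Srebf2 was highest in region 2.

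The labels were checked against marker genes before regions were compared. The white matter libraries held the cortical glutamate transporter gene Slc17a7, which marks excitatory neurons of the cortex, at 225 to 329 FPKM, and their summed levels of 14 oligodendrocyte and myelin genes ran from 1724 to 3332 FPKM in region 1 and from 798 to 1593 FPKM in region 2. The same sum was 8052 to 9785 FPKM in region 3, 8404 to 9569 FPKM in region 4 and 9227 to 11665 FPKM in region 5. Thus the blocks labelled white matter carried neuronal RNA and less myelin RNA than the cord samples, which included gray matter by the study's description. In bulk tissue, fewer cells of a type and less RNA per cell cannot be told apart. Libraries of regions 1 and 2 were also unequal among animals, and stimulated animal 2 had 294 FPKM of summed microglia and phagocyte genes in region 2, where the median of the 4 libraries was 61.8 FPKM.

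Between the white matter regions and the cord regions, all 6 enzymes were lower in white matter, by log2 fold changes from -1.34 in Idi1 to -0.92 in Hmgcs1. Mean levels over 8 white matter and 12 cord libraries were 5.55 ± 1.51 and 13.9 ± 2.92 FPKM for Idi1, 22.1 ± 5.01 and 52.5 ± 9.89 FPKM for Cyp51, and 53.0 ± 19.2 and 96.3 ± 21.3 FPKM for Hmgcs1 (SD). In limma, with Benjamini-Hochberg adjustment across the 15210 genes, each of the 6 had an adjusted p of at most 1.60e-08. Srebf2 differed in the other direction, 30.8 ± 6.41 FPKM in white matter against 27.1 ± 3.63 FPKM in cord (SD, n = 8 and 12), with a log2 fold change of 0.17 ± 0.07 (SE) and an adjusted p of 0.034. This call was lost without control animal 1, control animal 2 or stimulated animal 1, and with no filter on low values. With the animal as a block all 7 members were still called. The fit without a block, used here, took the 8 and 12 libraries as independent although they came from the same 4 animals. Each SD over them also includes differences between regions. Calls of lower expression covered 47.1% of all genes tested here and calls of higher expression 25%, so calls of this kind were common, and the median log2 fold change of the 7 members was -1.19 against -0.18 over all genes. The libraries of the tissues did not overlap for 5 of the enzymes, all except Hmgcs1, as for 16.8% of all genes in that direction.

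The rest of the pathway was also lower in white matter in 13 of 13 other sterol synthesis enzymes reported here, with a median log2 fold change of -0.89. The largest difference among them was in Acat2, which condenses acetyl-CoA, at -1.55 ± 0.09 (SE). Insig1 was lower by a log2 fold change of -1.05 ± 0.06. All 11 fatty acid synthesis genes tested were lower, Scd2 most at -1.69 ± 0.08. Of 12 genes of cholesterol efflux, esterification and oxidation, 8 were lower and 2 higher, among them Cyp46a1, the neuronal enzyme that oxidizes cholesterol for export, at 1.76 ± 0.09. These differences ran beside those of the marker lists, since 14 of 14 oligodendrocyte and myelin genes were lower in white matter (median log2 fold change -2.20) and 6 of 8 neuronal genes were higher with 1 lower. Lower levels in white matter were also called in 9 of 10 microglia and phagocyte genes (median -1.03), 4 of 5 Schwann cell genes (median -4.13, 1 higher), 7 of 9 astrocyte genes (2 higher), 3 of 5 fibroblast genes and 3 of 4 endothelial genes. The part of these cell types in the members' difference was not tested.

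The comparison of region 1 with region 2 set the implanted hemisphere against the other in the same 4 animals. Since the implant lay opposite the injury in every rat, the side of the implant and the side of the injured pathway cannot be told apart. Here all 7 members were lower under the electrodes, Srebf2 included. Only 1.76% of all genes were called lower in this comparison and 3.16% did not overlap in that direction, while the 7 members were all called and all without overlap. Calls of higher expression covered 1043 of the 15210 genes. The members' median log2 fold change was -0.56, that of all genes 0.06, and 841 and 931 genes were called lower after quantile and upper-quartile scaling, with all 7 members still among them.

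Hmgcs1 was measured at 40.0 and 37.0 FPKM in the control animals and 33.0 and 31.4 FPKM in the stimulated animals in region 1, and at 67.1, 70.4, 76.7 and 68.6 FPKM in the same order in region 2. The level in region 1 was thus 0.499 times that of region 2, with a log2 fold change of -1.004 ± 0.13 (SE, adjusted p = 0.000568, limma). Fdft1 was measured at 8.99, 8.37, 7.04 and 7.56 FPKM in region 1 and at 14.2, 13.9, 15.3 and 13.8 FPKM in region 2. Squalene synthase was lower in region 1 in every animal, by -0.84 ± 0.10 (adjusted p = 0.000208). Idi1 was measured at 4.51, 4.20, 4.08 and 4.06 FPKM in region 1 and at 6.79, 5.92, 7.40 and 7.46 FPKM in region 2. Its values in region 1 lay close together, and the log2 fold change was -0.71 ± 0.10 (adjusted p = 0.00129).

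Among the members, Cyp51, Sqle and Dhcr7 had smaller log2 fold changes than Hmgcs1, Fdft1 and Idi1, a difference that was not tested. The other enzymes of the pathway, given below, did not all follow this order of early and late steps. Cyp51 was measured at 19.7, 16.6, 15.7 and 19.6 FPKM in region 1 and at 24.6, 24.1, 26.3 and 30.1 FPKM in region 2 (log2 fold change -0.56 ± 0.13, adjusted p = 0.016, limma). Sqle was measured at 9.22, 8.80, 8.23 and 9.08 FPKM in region 1 and at 11.3, 11.1, 12.8 and 12.6 FPKM in region 2 (-0.43 ± 0.10, adjusted p = 0.014). For both genes the highest library of region 1 stayed under the lowest of region 2. Dhcr7 was measured at 5.02, 4.67, 4.52 and 4.58 FPKM in region 1 and at 6.15, 5.03, 6.12 and 6.92 FPKM in region 2. The gap between the groups was narrow in Dhcr7, 5.02 against 5.03 FPKM at its closest, and the log2 fold change of -0.36 ± 0.11 (adjusted p = 0.044) was not called with pseudocounts in place of the floor, without a filter, without an intensity trend or with a mean for each of the 10 combinations of region and treatment. Srebf2 was measured at 29.7, 27.7, 24.8 and 20.2 FPKM in region 1 and at 36.1, 35.2, 39.5 and 32.9 FPKM in region 2. The gene of the regulator was therefore lower with its targets in this comparison, by -0.50 ± 0.11 (adjusted p = 0.0086).

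With 4 libraries a region the number of calls depended on single animals. Hmgcs1, Idi1 and Fdft1 were called without control animal 1 and also without control animal 2, Hmgcs1 and Fdft1 without stimulated animal 1, and all 7 members without stimulated animal 2. Over all genes the calls went from 1310 to 95, 97, 26 and 3674 in the same order, and the direction of all 7 members stayed negative throughout.

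Among the 13 other enzymes, 4 were lower in region 1 and 0 higher, with a median log2 fold change of -0.30. The 4 were Msmo1 at -0.76 ± 0.12, Mvd at -0.61 ± 0.12, Acat2 at -0.56 ± 0.14 and Fdps at -0.47 ± 0.09 (SE). They act at steps from acetyl-CoA to the sterols that follow lanosterol. Of the 3 sterol uptake and transport genes tested, Stard4, which carries cholesterol within the cell, was lower at -0.67 ± 0.11, and Npc1, which releases cholesterol from lysosomes, was higher at 0.71 ± 0.18.

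Of 12 genes of sterol sensing and SREBP processing, 9 were not called and the median log2 fold change was 0.06, as over all genes. Insig1 was lower at -0.79 ± 0.10, while Nr1h3, the sterol receptor LXR alpha, was higher at 1.26 ± 0.33 and Srebf1, the regulator of fatty acid synthesis, was higher at 0.82 ± 0.18. Of 12 genes of efflux, esterification and oxidation, 4 were higher, 0 lower and 8 not called (median log2 fold change 0.68), led by the cholesterol exporter Abca1 at 1.83 ± 0.32 and its acceptor Apoe at 0.92 ± 0.25. The fatty acid list did not move in 1 direction, with Fads1 lower at -0.55 ± 0.13, Elovl5 higher at 0.49 ± 0.15 and 9 of 11 genes not called.

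Markers of several cell types moved with this comparison, in which 1043 of all 15210 genes were called higher and 267 lower. In region 1, 10 of 14 oligodendrocyte and myelin genes were higher (median log2 fold change 0.84, Cldn11 at 1.41 ± 0.24 and Ugt8 at 1.19 ± 0.22), while the enzymes were lower. Microglia and phagocyte genes were higher in 3 of 10, Lgals3 most at 3.86 ± 0.65 and Gpnmb at 3.19 ± 0.61, and their sum ran from 153 to 449.8 FPKM in region 1 and from 54.7 to 294 FPKM in region 2. Astrocyte genes were higher in 3 of 9 (Gfap at 2.04 ± 0.50, Aqp4 at 0.86 ± 0.21) and fibroblast genes in 4 of 5 tested (Col1a1 at 2.67 ± 0.55, Col3a1 at 2.61 ± 0.69). Schwann cell genes were higher in 2 of 5 (Pmp2 at 2.37 ± 0.34), with Ncmap at the floor of 0.1 FPKM in all libraries of both regions. The endothelial gene Cdh5 was higher at 1.02 ± 0.23, and the neuronal gene Slc17a6 was lower at -1.02 ± 0.14 as the only one of 8 neuronal genes called. The calls of all markers named here except Slc17a6 were lost without stimulated animal 1, and also without either control animal except for Pmp2, while their directions were kept. Over all 24 genes called and named beside the members for this comparison, 21 lost their call without at least 1 of those 3 animals, all except Msmo1, Insig1 and Slc17a6. The part of any cell type, oligodendrocytes included, in the members' difference was not tested.

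**Figure D2:**
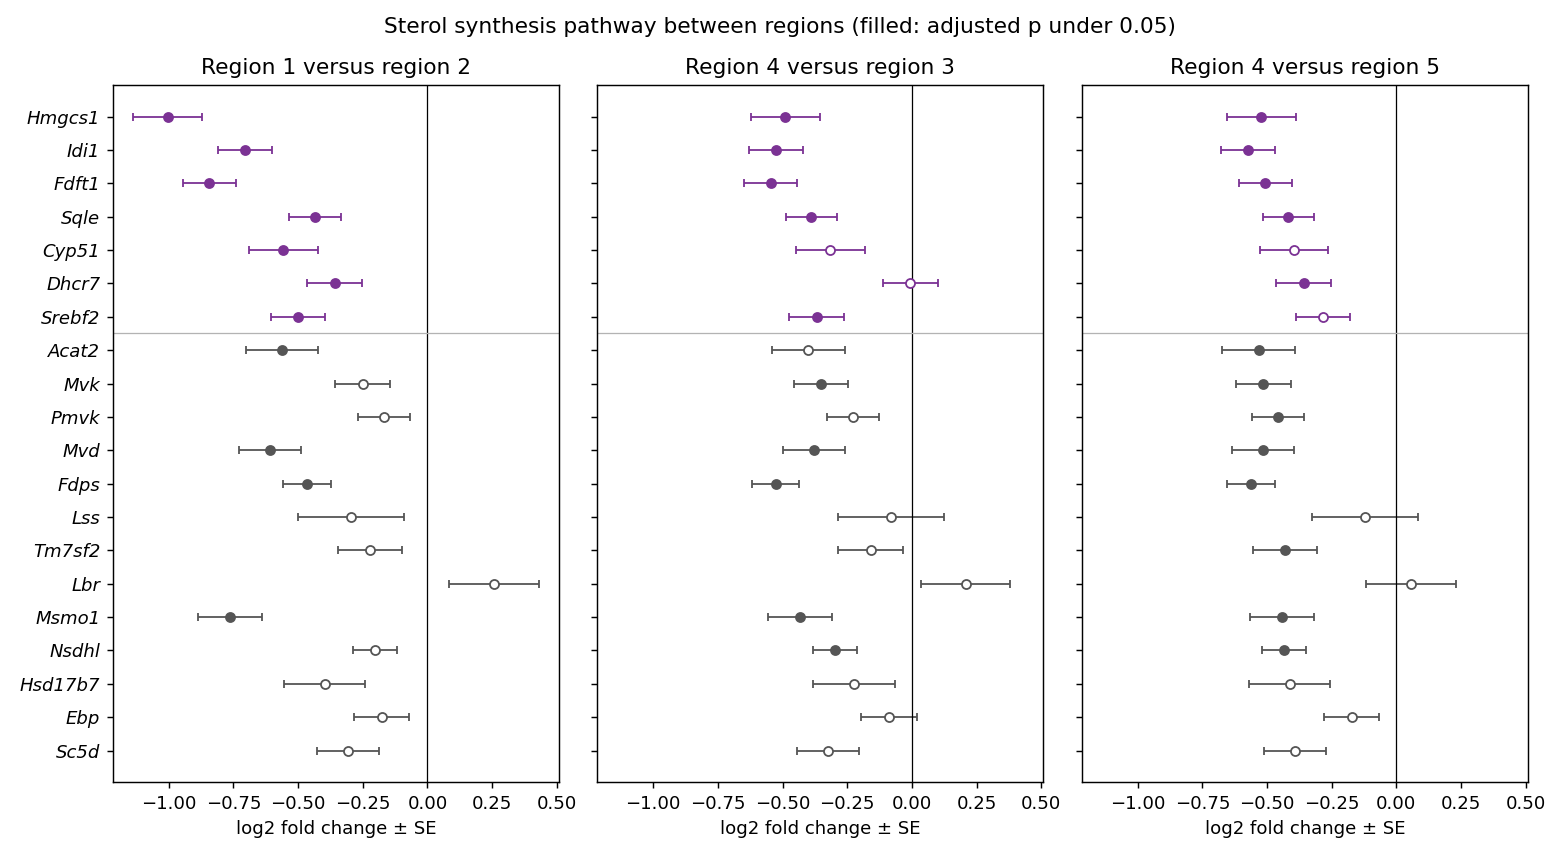
Log2 fold change ± SE (x axis) of the 7 members (purple, above the line) and the 13 other sterol synthesis enzymes (grey) for region 1 against 2, region 4 against 3 and region 4 against 5, with filled points for an adjusted p under 0.05. Nearly all points lie left of 0, Lbr being the only gene to the right in all 3 panels.

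At the lesion epicenter the members were compared with the cord above and below it. Against region 3, rostral to the injury, 5 of 7 members were lower (12.8% of all genes were called lower), and 6 of 7 were lower without overlap of libraries (15.7% of all genes). The members' median log2 fold change was -0.39, that of all genes -0.02. Against region 5, caudal to the injury, 5 of 7 were lower (7.06% of all genes) and 4 did not overlap (16.3%), with a median of -0.42 against -0.14 over all genes. Calls of higher expression covered 1031 of the 15210 genes against region 3 and 142 against region 5. Both comparisons use the same region 4 libraries.

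Fdft1 was measured at 28.1 and 30.8 FPKM in the control animals and 26.8 and 26.2 FPKM in the stimulated animals in region 3, at 19.4, 18.8, 17.7 and 20.8 FPKM in region 4, and at 31.6, 24.1, 23.1 and 31.1 FPKM in region 5. The epicenter was below every library of either neighbour, by log2 fold changes of -0.55 ± 0.10 against region 3 and -0.51 ± 0.10 against region 5 (SE, adjusted p = 0.00151 and 0.013, limma). Idi1 was measured at 15.4, 16.7, 14.4 and 14.6 FPKM in region 3, at 11.6, 10.5, 10.3 and 10.1 FPKM in region 4, and at 18.0, 13.8, 13.4 and 18.5 FPKM in region 5. It differed in the same way, by -0.53 ± 0.10 and -0.57 ± 0.10 (adjusted p = 0.00222 and 0.0084). Sqle was measured at 24.8, 25.1, 21.9 and 23.5 FPKM in region 3, at 19.0, 17.0, 17.2 and 19.5 FPKM in region 4, and at 28.0, 21.4, 20.3 and 28.3 FPKM in region 5. Its differences were smaller, -0.39 ± 0.10 and -0.42 ± 0.10 (adjusted p = 0.0115 and 0.0231).

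Hmgcs1 was measured at 108, 118, 93.6 and 100.3 FPKM in region 3, at 80.5, 78.4, 61.7 and 79.0 FPKM in region 4, and at 125, 102, 79.2 and 129.8 FPKM in region 5. It was lower by -0.49 ± 0.13 and -0.52 ± 0.13 (adjusted p = 0.017 and 0.029, limma), although stimulated animal 1 in region 5 overlapped the epicenter. Cyp51 was measured at 60.0, 55.5, 49.6 and 53.7 FPKM in region 3, at 48.2, 43.2, 37.8 and 47.1 FPKM in region 4, and at 71.2, 51.8, 44.3 and 67.8 FPKM in region 5. The log2 fold changes of Cyp51 were -0.32 ± 0.13 and -0.39 ± 0.13, with adjusted p of 0.0989 and 0.0665. With the animal as a block, which pairs the regions of one rat, the same Cyp51 values had adjusted p of 0.027 and 0.021, and 6 members were called in either comparison.

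Among the member enzymes, Dhcr7 alone had overlapping libraries in region 3 and region 4, and its difference from the others was not tested. It was measured at 12.3, 11.3, 11.2 and 11.2 FPKM in region 3, at 11.1, 10.6, 11.4 and 12.5 FPKM in region 4, and at 14.3, 13.1, 13.0 and 18.7 FPKM in region 5. The epicenter was level with region 3 to within the error (-0.01 ± 0.11, adjusted p = 0.98), with a sign that turned under quantile or upper-quartile scaling, and below region 5 (-0.36 ± 0.11, adjusted p = 0.047). Srebf2 was measured at 31.1, 30.1, 30.1 and 28.1 FPKM in region 3, at 22.4, 21.8, 23.3 and 25.0 FPKM in region 4, and at 32.2, 25.9, 24.8 and 30.2 FPKM in region 5. It was lower at the epicenter than in region 3 by -0.37 ± 0.11 (adjusted p = 0.021), while -0.28 ± 0.11 against region 5 did not pass the threshold (adjusted p = 0.089).

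The calls against region 5 depended on scaling and on single animals. Idi1 was the only member called after quantile or upper-quartile scaling, 0 members were called without control animal 1 or without control animal 2, and 2 without stimulated animal 2, Idi1 and Fdft1. Against region 3 the same 5 members were called under either scaling, and 2, again Idi1 and Fdft1, without control animal 1 and without control animal 2.

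Of the 13 other enzymes, 5 were lower at the epicenter than in region 3 and 8 were lower than in region 5, with 0 higher in either. Fdps, which makes the farnesyl units used by Fdft1, was at -0.53 ± 0.09 and -0.56 ± 0.09 (SE). Msmo1, Mvd, Mvk and Nsdhl were lower in both comparisons, by -0.43 to -0.30 against region 3 and by -0.52 to -0.43 against region 5. Acat2, Pmvk and Tm7sf2 were called against region 5 only, and the difference between the comparisons was not tested. Stard4, a target of SREBP2, was lower in both, by -0.61 ± 0.11 against region 3 and by -0.42 ± 0.11 against region 5, and so was Insig1 (-0.57 ± 0.10 and -0.52 ± 0.10).

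Of the efflux, esterification and oxidation genes, 7 of 12 were higher at the epicenter than in region 3 and 2 lower (median log2 fold change 0.81), with Abca1 at 2.12 ± 0.32, the lysosomal cholesterol carrier Npc2 at 1.38 ± 0.38, and with Cyp46a1 at -0.51 ± 0.14 and the exporter Abcg4 at -0.51 ± 0.13. Against region 5, 2 of 12 were called, Abca1 at 1.25 ± 0.32 and Abcg1, another sterol exporter, at 0.51 ± 0.14, both higher. Srebf1 and Mylip, a target of the LXR sterol receptors, were higher than in region 3 by 0.79 ± 0.18 and 0.78 ± 0.21. Of 11 fatty acid genes, 2 were lower in each comparison, Fads2 (-0.38 ± 0.10) and Elovl6 (-0.34 ± 0.11) against region 3, and Acly (-0.48 ± 0.08) and Acss2 (-0.40 ± 0.10) against region 5.

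Beside these differences, 8 of 8 neuronal genes were lower in region 4 than in region 3, Slc17a7 most at -2.32 ± 0.60 and Gad2 at -1.06 ± 0.17, and 3 of 8 were lower than in region 5. For Slc17a7, control animal 2 had 11.8 FPKM in region 3, where the others had 0.689 to 2.78 FPKM, and the log2 fold change without that animal was -1.53 (adjusted p = 0.079, limma). Microglia and phagocyte genes were higher than in region 3 in 6 of 10 (Cd68 at 3.58 ± 0.76, Gpnmb at 3.48 ± 0.61) and called in 0 of 10 against region 5 (2 at an unadjusted p under 0.05, limma). Their sums were 157 to 250.1 FPKM in region 3, 431 to 1062 FPKM in region 4 and 445 to 527 FPKM in region 5. Of 14 oligodendrocyte and myelin genes, 0 were called in either comparison (0 at an unadjusted p under 0.05 in both, limma), and their median log2 fold changes were 0.05 and -0.15. Schwann cell genes were higher than in region 3 in 4 of 5 (Ncmap at 1.78 ± 0.36) and called in 0 of 5 against region 5 (median log2 fold change -0.13). Against either region, 0 of 9 astrocyte, 0 of 5 fibroblast and 0 of 4 endothelial genes were called. Of these 3 lists, 1 astrocyte gene against region 5 and 0 of the rest had an unadjusted p under 0.05 (limma). Slc17a7 also lost its call without control animal 1 or stimulated animal 1, and Cd68 without either control animal. Over the genes called and named beside the members, 13 of 20 lost their call against region 3 without at least 1 animal, Fdps, Insig1, Stard4, Abca1, Gad2, Gpnmb and Ncmap being the exceptions, and 14 of 14 did so against region 5. The part of each of these cell types, called or not, in the members' difference was not tested.

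**Figure D3:**
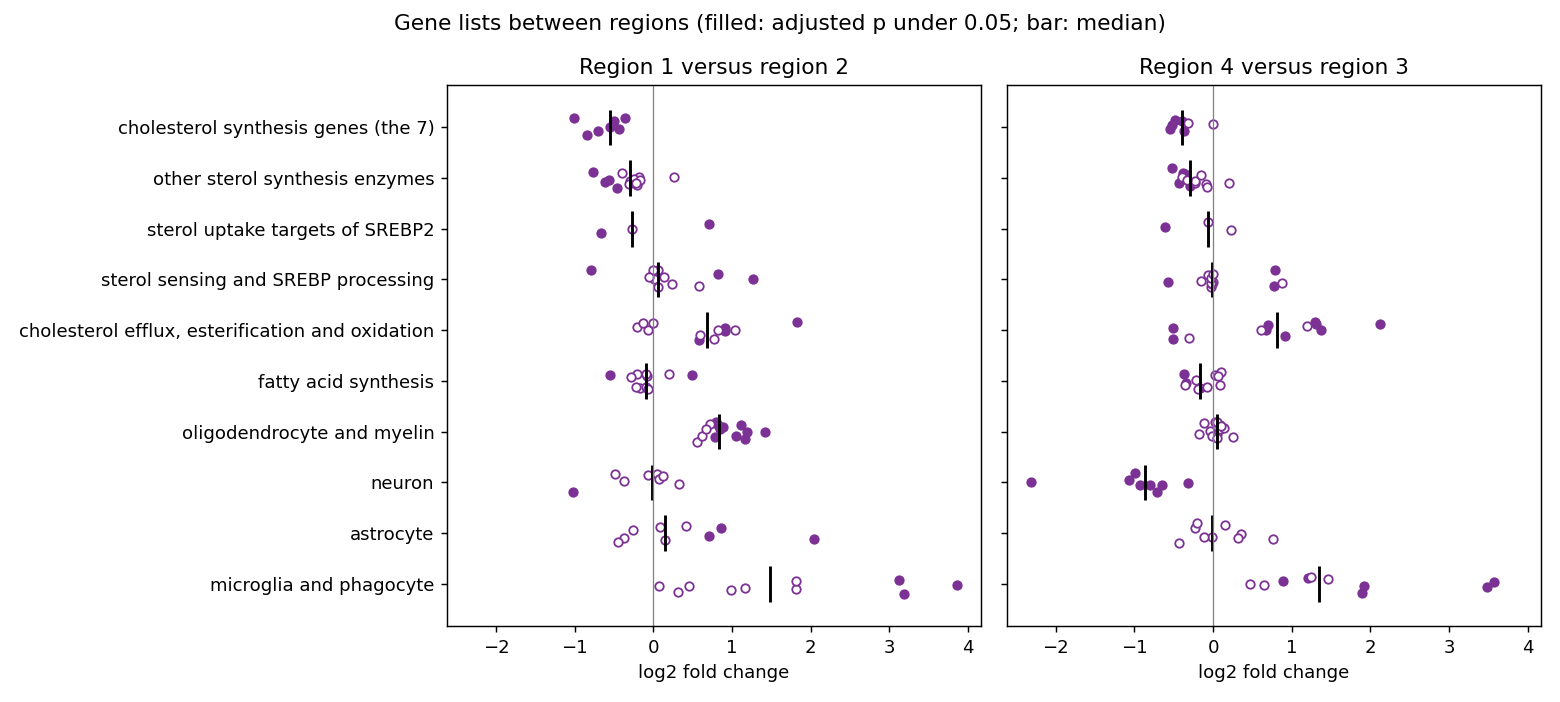
Log2 fold change (x axis) of every tested gene of 10 lists (rows) for region 1 against 2 and region 4 against 3, filled where the adjusted p was under 0.05, with a bar at each list's median. The cholesterol synthesis genes lie left of 0 in both panels, efflux and phagocyte genes mostly right, while myelin genes lie right of 0 in the left panel and around 0 in the right panel.

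Regions 3 and 5, the cord on either side of the lesion, did not differ in a member at the threshold. The log2 fold changes of region 5 against 3 ran, by member, from -0.09 to 0.35, with a median of 0.03 against 0.11 over all genes, and 4.32% of all genes were called in either direction. In limma 1 member had an unadjusted p under 0.05, Dhcr7, which was higher in region 5 without overlap as were 20.5% of all genes (0.35 ± 0.11 SE, adjusted p = 0.068). The signs of Hmgcs1, Idi1, Sqle and Cyp51 turned under quantile and upper-quartile scaling, and that of Fdft1 turned without control animal 2 or stimulated animal 1. The signs of Hmgcs1, Idi1 and Sqle also turned without control animal 1 or stimulated animal 2, and that of Cyp51 without stimulated animal 2. With the animal as a block the same Dhcr7 difference had an adjusted p of 0.035 and was the 1 member called. The other sterol enzymes had 0 calls of 13, with 2 at an unadjusted p under 0.05.

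Stimulated and control animals were compared within each region, 2 against 2, to see whether cortical stimulation went with a change in these genes. In limma 0 of 7 members passed the threshold in any region, and 0 had an unadjusted p under 0.05 in any of the 5 regions. The share of all genes called was 0% in regions 1 to 4 and 0.0197% in region 5. These counts over all genes turned on single animals, since 228 genes in region 1, 548 in region 2 and 147 in region 5 were called without stimulated animal 1, 104 and 140 in region 4 without control animal 1 or 2, and 119 in region 5 without stimulated animal 2, with 0 members among the calls. Such a fit assumes that the lone animal of a group varies like the others. In region 1 all 7 log2 fold changes were below 0, from -0.36 ± 0.14 in Srebf2 and -0.26 ± 0.10 in Hmgcs1 to -0.04 ± 0.17 in Cyp51 (SE, adjusted p from 0.71 to 0.95). The groups did not overlap in 5 members, all with the stimulated animals lower, as in 19.5% of all genes.

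In region 2 all 7 values were above 0, from 0.02 ± 0.12 in Srebf2 to 0.23 ± 0.12 in Idi1 (SE, adjusted p from 0.95 to 1.00, limma), where the median of all genes was 0.08. After quantile or upper-quartile scaling the values of Hmgcs1, Fdft1 and Srebf2 were below 0. Idi1, Sqle and Cyp51 were higher without overlap, as were 20.2% of all genes. In region 3 all 7 values were below 0, with a median of -0.15 where that of all genes was -0.07. There 6 members were lower without overlap, as were 24.7% of all genes. Quantile scaling turned the signs of Dhcr7 and Srebf2, the latter also under upper-quartile scaling. In region 4 the signs were mixed, with Dhcr7 and Srebf2 higher (12.5% of all genes) and Idi1 lower (7.69%) without overlap. In region 5 the groups overlapped in all 7 members, whereas 18.5% of all genes were higher and 6.07% lower without overlap.

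The difference between the effects in regions 1 and 2 was tested on differences within each animal. All 7 differences were below 0, from -0.37 ± 0.11 in Srebf2 to -0.24 ± 0.13 in Sqle (SE), where the median of all genes was -0.13. None had an adjusted p under 0.88, 1 had an unadjusted p under 0.05, and 0% of all genes were called. Of the 13 other sterol synthesis enzymes, 0 passed the threshold in any region (1 each in regions 3 and 5 at an unadjusted p under 0.05, limma). Of their values, 10 of 13 were below 0 in region 1, 12 of 13 above 0 in region 2 and 10 of 13 below 0 in region 3. Their median log2 fold changes in these regions were -0.10, 0.11 and -0.09, where those of all genes were -0.03, 0.08 and -0.07.

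**Figure D4:**
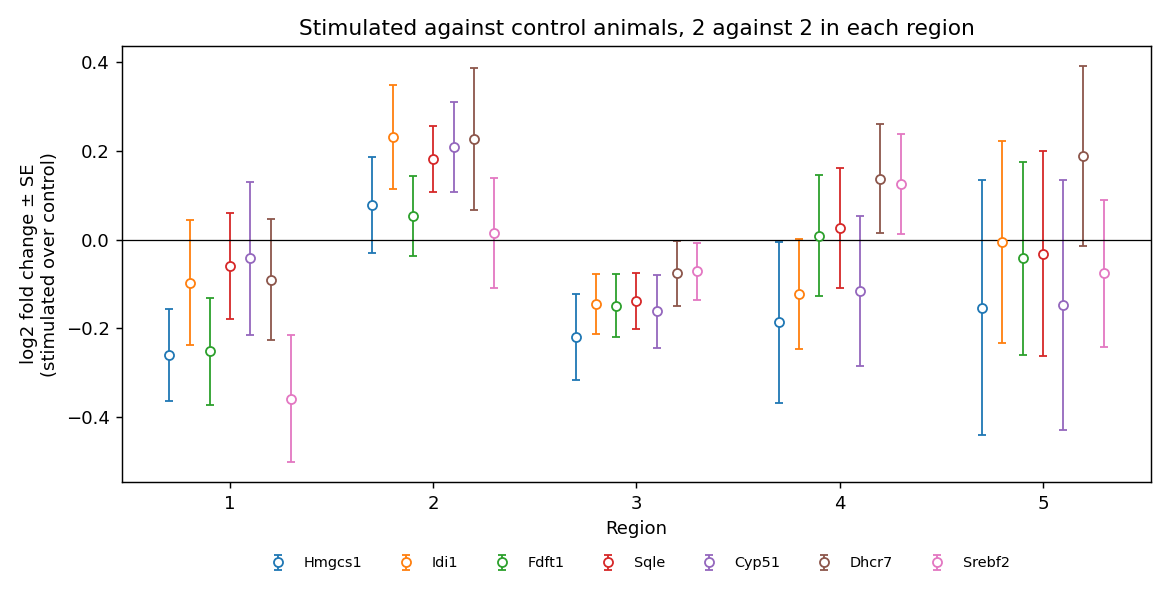
Log2 fold change ± SE of stimulated over control animals (y axis) for each member (colour) in regions 1 to 5 (x axis), from 2 against 2 libraries. All points are open because 0 passed the threshold, with all 7 below 0 in regions 1 and 3 and all 7 above 0 in region 2. The medians of all genes in regions 1, 2 and 3 were -0.03, 0.08 and -0.07.

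The members varied together from library to library, Srebf2 in part. Over the 20 libraries, pairs of the 6 enzymes had Pearson correlations of log2 FPKM from 0.85 to 0.99 with a median of 0.96, and Srebf2 had from -0.12 to 0.33 with the enzymes. These values describe libraries that fall into 5 regions and share animals. When each library was expressed as its deviation from the region mean, pairs of enzymes had correlations from 0.45 to 0.91 and Srebf2 from 0.32 to 0.76 with the enzymes. A shift of a whole library moves all genes, and the scale of each library is shared by all pairs.

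Region 5 showed the widest spread in the 6 enzymes, whereas Srebf2 spread most in region 1, from -0.325 to 0.229 on the log2 scale. Control animal 1 and stimulated animal 2 were above the mean of region 5 in 6 and 7 of the 7 members, by 0.19 and 0.23 on average. Control animal 2 and stimulated animal 1 were below that mean in all 7, at -0.15 and -0.27. The medians of all genes in these libraries were 0.06, 0.09, -0.11 and -0.04 in the same order. The animals on either side came one from each treatment.

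**Figure D5:**
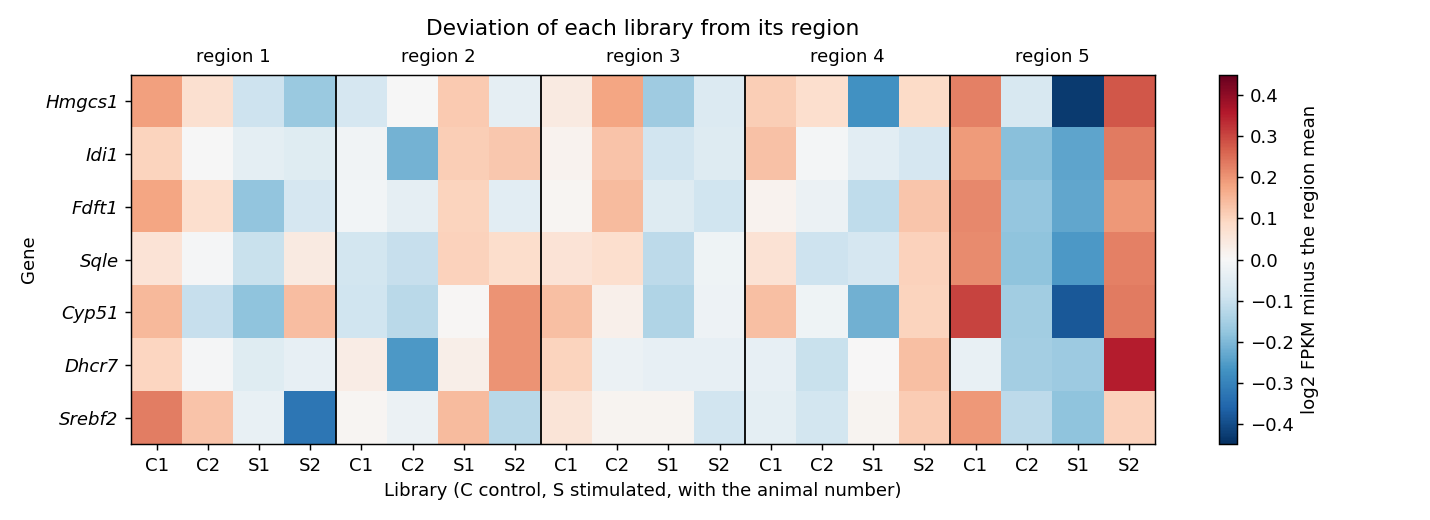
Deviation of each library from its region mean in log2 FPKM (colour) for the 7 members (rows) in the 20 libraries (columns, C for control and S for stimulated animals with the animal number). In region 5 the columns of control 1 and stimulated 2 are mostly red and those of control 2 and stimulated 1 are blue throughout.

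Among the genes reported here, the 10 whose levels were most like the mean of the 7 members over the 20 libraries were Msmo1 (r = 0.995), Mvd (0.986), Acat2 (0.98), Insig1 (0.977), Sc5d (0.966), Fdps (0.963), Acss2 (0.962), Nsdhl (0.96), Lgi2 (0.954) and LOC678796 (0.954). Of these 10, 6 were on the list of other sterol synthesis enzymes. On deviations from the region means the 10 were Msmo1 (r = 0.936), Aacs (0.882), LOC100911664 (0.874), Hivep1 (0.872), Acat2 (0.871), Mvd (0.864), Elovl6 (0.855), Fasn (0.848), Cmtm4 (0.835) and Sec24b (0.831). Msmo1, which removes methyl groups from the sterol after Cyp51 has acted, was first on both scales. Fasn and Elovl6 make and lengthen fatty acids and Aacs activates acetoacetate for lipid synthesis. The myelin genes had a median correlation with the members' mean of 0.74 over all libraries and of 0.24 on deviations from region means. The same 2 medians were 0.88 and 0.45 for fatty acid synthesis, 0.51 and 0.24 for astrocyte genes, and 0.45 and 0.33 for endothelial genes. They were -0.67 and 0.22 for neuronal, 0.19 and 0.05 for microglia and phagocyte, 0.69 and -0.12 for Schwann cell, and 0.16 and 0.09 for fibroblast genes.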

How the data were processed

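RNA was sequenced from ribosomal RNA-depleted libraries. Per the labels and the study's methods, the authors checked reads with FastQC and MultiQC 1.6, aligned them to Rnor6 with TopHat2 2.1.0 and estimated FPKM with Cufflinks 2.2.1, and the deposited FPKM values had been raised to 0.1 where lower. Every library column matched a sample title (0 columns without a sample). The strand used in counting was not given in the sources used here, so overlapping and antisense genes are uncertain.

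FPKM floored at 0.1 was log2-transformed for genes reaching 1 FPKM in any library. Regions were compared with limma 3.58.1 (R 4.3.3, lmFit and eBayes with a trend) in 1 model of 20 libraries with a mean per region, white matter being the mean of regions 1 and 2 and cord that of regions 3, 4 and 5. Stimulation was fitted in the 4 libraries of a region. Adjusted p-values (Benjamini-Hochberg, threshold 0.05) cover all 15210 genes; folds are on the log2 scale of floored values. The fits were first run on simulated data with a log2 change of 2 in 200 genes. Such a run does not show whether smaller changes, like the members' values for stimulation, would be found. Tables and figures used Python 3.11.15, pandas 2.3.3 and matplotlib 3.10.9.

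The members and lists were chosen with earlier results of these data known. Named genes were the members, the other sterol enzymes, and of each further list up to 2 called genes per direction with the largest change, or the 2 with the smallest p where none was called, and the 10 genes most like the members' mean. Some genes of the lists are not reported here, and counts and medians of lists leave them out. Libraries of an animal are paired across regions by their titles (correlation of deviations 0.588 for regions 1 and 2, -0.033 to 0.208 otherwise), whereas control and stimulated animals share only a number. Alternatives covered pseudocounts, filters, scaling, trend, 10 group means, blocks and each animal left out.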

Additional observations from a re-analysis of the deposited data

Results flagged for a closer look

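For each of the 7 members in each of the 5 regions, the group of 4 libraries was searched by Dixon's test at the 95% level. In 2 of these groups a single library stood far from the others, at a level where chance marks about 1 group in 20. Hmgcs1 in stimulated animal 1 at the epicenter was at 61.7 FPKM, the others being at 78.4 to 80.5 FPKM. Dhcr7 in control animal 1 of region 3 was at 12.3 FPKM, the others being at 11.2 to 11.3 FPKM.

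In several genes both stimulated animals were on one side of both control animals in one region and on the opposite side in another. Within single regions this was common, as 20.2% of all genes were higher without overlap in region 2 and 12.5% in region 4. In regions 1, 3 and 4, 19.5%, 24.7% and 7.69% of all genes were lower without overlap. The share of all genes on opposite sides in different regions was not computed. For Idi1, the log2 fold change was 0.23 in region 2 but -0.10 in region 1, -0.15 in region 3 and -0.12 in region 4. Sqle was at 0.18 in region 2 and -0.14 in region 3, and Cyp51 at 0.21 and -0.16. Dhcr7 was at 0.14 in region 4, with -0.090 in region 1 and -0.076 in region 3, and Srebf2 at -0.36 in region 1 and 0.13 in region 4. The difference was not tested except for Idi1 between regions 1 and 2, which came to -0.33 ± 0.15 (SE, adjusted p = 0.88, limma).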

How the results depend on the processing

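Over the 5 comparisons of regions, the members' calls were lost in 37 of the 96 values of called results with an animal left out and in 20 of 216 under other settings, and those of the other named genes in 127 of 248 and 46 of 558. With an animal left out, 6 to 7 members were called between white matter and cord, 2 to 7 for region 1 against 2 (7 without stimulated animal 2), 2 to 5 for region 4 against 3 and 0 to 4 for region 4 against 5. For region 4 against 5 the members called were 3 without a filter, 1 after quantile or upper-quartile scaling and 2 with 10 means (region by treatment). The animal as a block, from real pairing of regions, called 1 member for region 5 against 3, and 6 for region 4 against 3 and against 5, and it took no member's call away. The stimulation comparisons called 0 members under every alternative, and 33 of their 581 values changed sign.

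Signs turned in uncalled values only. Dhcr7 in region 4 against 3 was 0.023 after quantile and 0.034 after upper-quartile scaling, and -0.063 to 0.040 with an animal left out. For stimulation in region 2, the same scalings gave -0.047 and -0.029 for Hmgcs1, -0.051 and -0.052 for Fdft1, and -0.095 and -0.091 for Srebf2, and leaving out an animal gave -0.0034 to 0.16, -0.019 to 0.13 and -0.12 to 0.15. In region 1 the stimulation values of Sqle ran from -0.13 to 0.012 and those of Cyp51 from -0.20 to 0.12 with an animal left out. Dhcr7 for stimulation in region 3 was 0.00021 after quantile scaling.

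Quantile normalization shifted the median log2 fold change of all genes from -0.18 to -0.04 for white matter against cord, from 0.06 to -0.05 for region 1 against 2, from -0.14 to -0.03 for region 4 against 5, from 0.11 to -0.02 for region 5 against 3 and from 0.08 to -0.06 for stimulation in region 2. Genes called higher and lower then went from 1043 and 267 to 943 and 841 for region 1 against 2, from 142 and 1074 to 195 and 275 for region 4 against 5, from 422 and 235 to 435 and 674 for region 5 against 3, and from 3808 and 7169 to 5054 and 6018 for white matter against cord. With an animal left out, genes called ran from 26 to 3674 for region 1 against 2, from 523 to 4909 for region 4 against 3, from 5 to 1097 for region 4 against 5 and from 54 to 1237 for region 5 against 3, and for stimulation from 0 to 228 in region 1, 0 to 548 in region 2, 8 to 140 in region 4 and 0 to 147 in region 5, with 0 in region 3. For stimulation in region 5, 3 genes were called without and 443 with the replicate number as a block, a fit with little left to estimate the spread. Control and stimulated animals with the same number are different animals, so by design the numbers pair nothing. Within regions, differences between animals 1 and 2 had correlations from -0.213 to 0.321 between the treatments, which cannot settle this. A crossed pairing, added after the data were seen, called 118 genes for region 4 and 0 elsewhere. The FPKM values keep no read numbers, so precision rests on 4 animals.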
